A study of Mus musculus with 4 samples.

Results

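Long stretches of the genome without a called lamina-associated domain (LAD) in either genotype were collected from the lamina maps of mouse hepatocytes. Interior here means outside the called LADs. A stretch was chosen by the LAD calls themselves: it lies on chromosomes 1 to 19, between 2 LADs of either genotype, outside every LAD of both lists, and is at least 300 kb long. The rule gave 660 stretches among 9188 interior stretches of any length. They held 471.7 Mb, which is 19.1% of chromosomes 1 to 19 and 54.0% of the 874.0 Mb of interior chromatin between LADs. That the stretches hold no LAD in either genotype is therefore how they were selected and not a result.

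The maps come from DamID, in which a lamin B1 fusion brings the bacterial enzyme Dam to the nuclear envelope, where it marks GATC sites by adenine methylation, and unfused Dam gives the control for accessibility. Primary hepatocytes were taken from wild-type mice (WT) and from mice without Tm7sf2, also called NET47 (KO), aged 12 to 16 weeks. They were transduced for 24 h with a lentivirus carrying Dam-LaminB1 or Dam only, and the cells were harvested 60 h after transduction. Each of the 4 libraries held DNA pooled from 4 mice, so each genotype has 1 pair of libraries and no value here carries an error between animals or a test. The study gave the KO fewer usable reads than the WT, and the deposited lists hold positions without a signal or a read number, so the depth behind a single border is unknown. The cells in both groups were cultured and virally transduced, and only the genotype differs between the groups in the labels. The lists hold no expression, so the hepatocyte label could not be checked against marker genes.

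Chromatin at the lamina is in most cell types poor in genes and in CpG and is mostly silent, and the regions between LADs hold most of the active genes. Interior chromatin of this kind includes the genes every cell uses as well as genes that a given tissue keeps active. Tm7sf2 is a sterol reductase with several membrane spans, found in the endoplasmic reticulum and the nuclear envelope, and it is strongly expressed in liver.

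The 3 longest stretches without a run of undetermined bases are shown by their sequence, because the listed borders fall at GATC sites and the CpG content of the windows can be read beside that of a LAD of both genotypes. They lie at chr8:123458515-126642799, chr15:79332659-82345135 and chr9:62290632-65133188 (NCBIM37, the same assembly as mm9). Each border is given as 60 bases of the plus strand with the GATC in capitals, and the border falls after base 30.
chr8 stretch, left border, chr8:123458485-123458544 (plus strand): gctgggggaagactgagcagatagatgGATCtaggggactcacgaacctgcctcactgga
chr8 stretch, right border, chr8:126642770-126642829 (plus strand): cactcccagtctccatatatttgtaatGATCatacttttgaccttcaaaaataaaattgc
chr15 stretch, left border, chr15:79332629-79332688 (plus strand): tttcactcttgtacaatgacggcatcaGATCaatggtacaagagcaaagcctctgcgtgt
chr9 stretch, right border, chr9:65133159-65133218 (plus strand): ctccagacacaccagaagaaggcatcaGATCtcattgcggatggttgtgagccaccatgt
A GATC overlapped the border in the 4 windows shown, starting 3 bases before it. Over all stretches this held for 1306 of 1320 borders, or 98.9%, so the borders sit at the cutting sites of the assay and cannot be placed more finely than the distance between GATC sites.

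For each of these stretches, the 250 bases before the start of the protein-coding gene nearest to its middle with no annotated exon in that window are shown, with CpG in capitals, read along the strand of the gene. The genes are Fam38a (a mechanically gated ion channel, now called Piezo1), Sgsm3 (a regulator of small GTPases) and Smad3 (a transcription factor of TGF-beta signalling).
Fam38a upstream, chr8:125075230-125075479 (minus strand): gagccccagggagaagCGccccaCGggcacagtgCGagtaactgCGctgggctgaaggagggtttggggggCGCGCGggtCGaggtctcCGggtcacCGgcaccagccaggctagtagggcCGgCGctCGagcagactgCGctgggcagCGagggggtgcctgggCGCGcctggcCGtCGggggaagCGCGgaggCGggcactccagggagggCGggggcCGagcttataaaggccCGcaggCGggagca
Sgsm3 upstream, chr15:80807945-80808194 (plus strand): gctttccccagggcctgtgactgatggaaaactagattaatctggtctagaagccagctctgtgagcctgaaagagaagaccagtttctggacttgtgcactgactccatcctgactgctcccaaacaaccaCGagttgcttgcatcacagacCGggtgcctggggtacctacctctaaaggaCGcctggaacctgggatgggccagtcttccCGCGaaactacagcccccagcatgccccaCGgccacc
Smad3 upstream, chr9:63605802-63606051 (minus strand): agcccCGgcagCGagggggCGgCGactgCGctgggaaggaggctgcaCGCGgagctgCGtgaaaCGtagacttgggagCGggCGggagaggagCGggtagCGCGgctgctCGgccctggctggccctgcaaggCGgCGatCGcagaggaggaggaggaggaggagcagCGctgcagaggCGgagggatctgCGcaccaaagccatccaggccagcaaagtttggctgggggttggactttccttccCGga
For contrast, 250 bases without an exon follow from the middle of the nearest interval of at least 10 kb in LADs of both genotypes, beside the chr8 stretch.
shared LAD near the chr8 stretch, chr8:121852668-121852917 (plus strand): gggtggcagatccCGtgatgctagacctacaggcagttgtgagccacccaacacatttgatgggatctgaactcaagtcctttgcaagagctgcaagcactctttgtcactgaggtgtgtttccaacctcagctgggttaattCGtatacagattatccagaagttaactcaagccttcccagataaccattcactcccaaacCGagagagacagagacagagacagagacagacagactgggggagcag
The windows held 26 CpG at Fam38a, 6 at Sgsm3 and 22 at Smad3, and 3 in the LAD window. The LAD window lies 1606 kb from the nearest border of the stretch. Unlike the windows of the genes, it was not placed at a gene start. Its GC content was 49.6%, against 39.5% over LADs of both genotypes. The upstream windows of all genes that start in the long stretches held a median of 12 CpG (quartiles 5 and 20, 9046 windows), so Fam38a and Smad3 lie above the upper quartile and Sgsm3 in the lower part of the range. The same windows of genes that start in LADs of both genotypes held a median of 2 CpG (quartiles 1 and 4, 4135 windows). Those of genes that start in KO LADs only held a median of 13 (quartiles 5 and 22, 2599 windows), and those in shorter interior stretches a median of 11 (quartiles 4 and 19, 4927 windows). The upstream CpG of the long stretches thus lay far from that of LADs of both genotypes and near that of KO LADs only, which set most of the borders.

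Not all of the stretches are chromatin that the assay could read. Of the 660, 32 overlap a run of at least 10 kb of undetermined bases in the assembly, and in 7 of these such bases make up more than 90% of the stretch. A gap in the assembly yields no fragments and can hold no LAD, so these 7 stretches, with 14.6 Mb in all, met the rule without a measurement. The longest of all 660 is of this kind, an undetermined run of 7000 kb at chr7:39356195-46356194, with both a WT and a KO LAD ending exactly at each of its edges. The others lie on chromosomes 1, 5, 8 (2 stretches), 12 and 13, and no gene starts in any of the 7. The remaining 628 stretches without such a run held 429.7 Mb. Base composition is given per determined base, and distributions over stretches are given for these 628.

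The 628 stretches had a median length of 510.2 kb and a mean of 684.2 kb. The length class of 300 to 500 kb held 305 of them, 212 were 500 to 1000 kb long, and 111 were 1000 kb or longer. The longest class was few in number but held 164.1 Mb, or 38.2% of the bases, and 15 stretches of at least 2000 kb held 8.22%. At the threshold of the rule, the 3 shortest stretches were 300.4, 300.7 and 301.1 kb long and the 3 longest that missed it were 299.7 kb each. Those just inside held 2, 6 and 2 gene starts, among them Ank (a pyrophosphate transporter), Cdk6 (a cell cycle kinase) and Dusp10 (a phosphatase of MAP kinases). Those just outside held 5, 2 and 1.

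The stretches were rich in genes and in CpG. Of 21281 protein-coding genes on chromosomes 1 to 19, 9046 start in a long stretch, which is 42.5% of the genes on 19.1% of the bases. The 95% Wilson interval, 41.8% to 43.2%, covers counting error only. It takes genes as independent, although neighbouring genes share a stretch, and holds no spread between animals. The 9046 starts came to 19.9 per Mb of determined bases, against 12.4 in interior stretches under 300 kb, 3.52 in bases lying in LADs of both genotypes and 8.89 over chromosomes 1 to 19. The CpG content was 12.4 per kb in the long stretches, 10.3 in the shorter interior stretches, 6.36 in LADs of both genotypes and 8.51 over chromosomes 1 to 19. The GC content followed the same order, at 46.5%, 43.7% and 39.5%. GATC sites, which the assay needs, were slightly sparser in the long stretches, at 2.42 per kb, than in LADs of both genotypes, at 2.61 per kb, and their part in the calls was not tested.

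Bases in a LAD of a single genotype stood on different sides of this contrast. The 191.2 Mb in KO LADs only held 13.6 gene starts per Mb and 10.3 CpG per kb, values close to those of the shorter interior stretches. The 174.3 Mb in WT LADs only held 3.10 gene starts per Mb and 6.81 CpG per kb, values close to those of the LADs of both. The genes differed in length as well. Genes that start in the long stretches had a median length of 14.96 kb, those in shorter interior stretches 20.4 kb, those in KO LADs only 33.1 kb and those in LADs of both 5.05 kb.

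Promoters were classed by the 500 bases on either side of the gene start, as CpG-rich with a ratio of observed to expected CpG over 0.75 and a GC content over 55%, and as CpG-poor with a ratio under 0.48. CpG-rich promoters are typical of genes that are active in many tissues. In the long stretches 31.5% of the promoters were CpG-rich and 32.8% CpG-poor. The shares were 29.7% and 36.6% in the shorter interior stretches and 37.4% and 26.5% in KO LADs only. In LADs of both, 4.21% were CpG-rich and 85.1% CpG-poor, and none of the 541 genes that start in WT LADs only had a CpG-rich promoter by this definition. Genes of non-coding RNA followed the protein-coding genes in part. Annotated lincRNA genes (long non-coding RNA between genes) started 1.22 times per Mb in the long stretches and 0.106 times in LADs of both, miRNA genes 1.04 and 0.428 times, and snoRNA genes 0.855 and 0.516 times. Pseudogenes differed least, at 1.91 and 1.65 per Mb.

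Gene density was higher in each longer class of interior stretch. Among stretches without an undetermined run, gene starts per Mb came to 11.0 in those under 50 kb, 11.6 in those of 50 to 100 kb, 13.5 in those of 100 to 300 kb, 16.5 in those of 300 to 500 kb, 18.2 in those of 500 to 1000 kb and 23.4 in the 111 of at least 1000 kb. CpG content went along the same classes from 9.60 to 13.0 per kb, and GC from 43.1% to 47.3%. Within the 628 long stretches the relation was loose, with a Spearman rho across stretches of 0.23 between length and gene density and 0.20 between length and CpG content. Neighbouring stretches share their surroundings and LADs, so these are descriptions across regions.

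**Figure D1:**
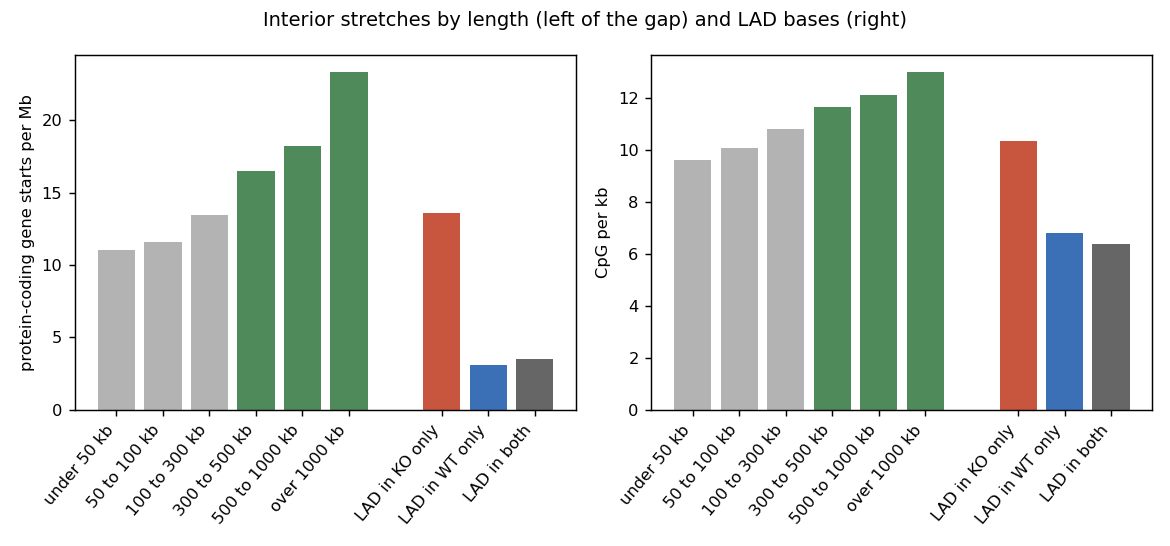
Protein-coding gene starts per Mb (left) and CpG per kb (right) in interior stretches by length (grey under 300 kb, green from 300 kb on), and in bases of LADs called in KO only (red), in WT only (blue) and in both (dark grey). Both measures rise with the length of the interior stretch, to 23.4 gene starts per Mb and 13.0 CpG per kb in stretches of at least 1000 kb, and the bases in KO LADs only lie nearer to the interior stretches than to the LADs of both.

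Single stretches differed widely. The 628 held between 0 and 122 gene starts with a median of 8, and 279 of them held 10 or more. Gene density ranged from 0 to 78.5 per Mb, with a median of 15.6 and the middle 80% of stretches between 4.58 and 34.8. CpG content ranged from 5.20 to 19.9 per kb with a median of 11.8, so the lowest stretches were poorer in CpG than the average LAD base.

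The densest stretches were compact gene clusters. The highest density, 78.5 gene starts per Mb, was reached at chr14:56042317-56424546, where 30 genes start in 382.2 kb, among them Psme1 and Psme2 (activators of the immunoproteasome), Irf9 (a factor of the interferon response), Pck2 (mitochondrial PEP carboxykinase) and Ripk3 (a kinase of necroptosis). The next stood at chr7:4722061-5079377 with 26 gene starts in 357.3 kb, among them Rpl28, the ubiquitin-conjugating enzyme gene Ube2s, the splicing factor gene U2af2 and many zinc finger genes. After it came chr17:34666565-36202715, which was longer at 1536 kb and is part of the major histocompatibility complex. It held 102 gene starts, among them the complement genes C2, C4b and Cfb, the cytokine genes Tnf, Lta and Ltb, the heat shock genes Hspa1a and Hspa1b, Pou5f1, and class I genes such as H2-D1. By CpG content the highest were chr10:78960629-81037717 with 19.9 per kb, which also held the most gene starts (122, among them Stk11, a kinase of energy balance, Gpx4, which reduces lipid peroxides, Lmnb2 and Tcf3), chr4:151122965-151775625 with 18.5 (Camta1, Chd5, Rpl22) and chr5:114139812-116119822 with 18.1 (the lipid enzyme genes Acacb, Mvk and Acads).

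At the other end, 8 of the 628 stretches held no start of a protein-coding gene. A large gene that starts elsewhere overlapped 7 of these 8. They were Dst (a cytoskeletal linker), Nfib (a transcription factor), Tbc1d1 (a regulator of glucose transport), Rora (a nuclear receptor), Prkca (protein kinase C alpha), Thrb (thyroid hormone receptor beta), and Fancc (a DNA repair gene), the last together with 2010111I01Rik. The stretch at Thrb, chr14:18510715-18859672, also had the lowest CpG content, 5.20 per kb. The stretch at chr13:44304573-44615951, with 311.4 kb, had neither a start nor a span of a protein-coding gene and 11.97 CpG per kb, close to the median. The next lowest in CpG was chr15:3131635-3505197 with 6.15 per kb and 2 gene starts. Sepp1 (the plasma selenium carrier, made in liver) starts there and Ghr (growth hormone receptor) reaches in. Low CpG did not always go with few genes. The stretch that followed, chr19:60830229-61245571 with 6.83 per kb, held 7 gene starts or 16.9 per Mb, among them Prdx3 and Eif3a.

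Of the 10 longest stretches, 9 are made of sequence. They span 2305 to 3239 kb and hold 32 to 103 gene starts each. Those on chromosomes 12, 5 and 19 include undetermined runs on 1.54%, 2.77% and 7.88% of their bases. The chr12 stretch, chr12:84200456-87439129, has 56 gene starts, among them Fos, Jdp2 and Batf (members of the AP-1 family of transcription factors), the Acot cluster (acyl-CoA thioesterases), Numb (an inhibitor of Notch) and Tgfb3 (a growth factor). The chr8 stretch has 62, among them Foxf1a and Foxc2 (transcription factors), Cdt1 (a DNA replication licensing factor), Rpl13 (a ribosomal protein) and Mvd (a cholesterol synthesis enzyme). The chr15 stretch has 74, among them Ep300 (a histone acetyltransferase), Atf4 (a stress response factor), Srebf2 (a regulator of cholesterol genes), Sun2 (an inner nuclear membrane protein) and 4 Cyp2d genes at its right end. The chr9 stretch has 32, among them Smad3 and Smad6, which transmit and restrain TGF-beta family signals, Map2k1 (a MAP kinase kinase) and Rpl4. The chr5 stretch, chr5:30433605-33201746, has 57, among them Hadha and Hadhb (beta-oxidation), Gckr (the regulator of glucokinase), Khk (fructokinase) and Cad (pyrimidine synthesis). The chr11 stretch, chr11:96357565-99037602, has 76, among them the nuclear receptors Thra, Nr1d1 and Rara, the receptor kinase Erbb2 and Top2a (topoisomerase II alpha). The chr17 stretch, chr17:28025790-30475716, has 45, among them Cdkn1a (a cell cycle inhibitor), Mapk14 (a stress kinase), Ppard (a nuclear receptor) and Fkbp5, and the chr7 stretch, chr7:86673056-88977713, has 48, among them Furin (a proprotein convertase), Idh2 (mitochondrial isocitrate dehydrogenase), Blm (a DNA helicase) and Plin1 (a lipid droplet protein).

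The remaining stretch, chr19:5156085-7697831, holds Tm7sf2 itself, the gene removed in the KO. Tm7sf2 (chr19:6062821-6068373, minus strand) starts 1629 kb from the nearest WT LAD and 912.3 kb from the nearest KO LAD. The stretch is 2542 kb long, has 103 gene starts at 40.5 per Mb, and also holds Banf1 (a chromatin protein that binds lamina proteins), Rela (a subunit of NF-kappaB), Kat5 (a histone acetyltransferase), Men1 (menin) and Esrra (a nuclear receptor). Its right border was set by a WT LAD and its left border by a KO LAD.

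**Figure D2:**
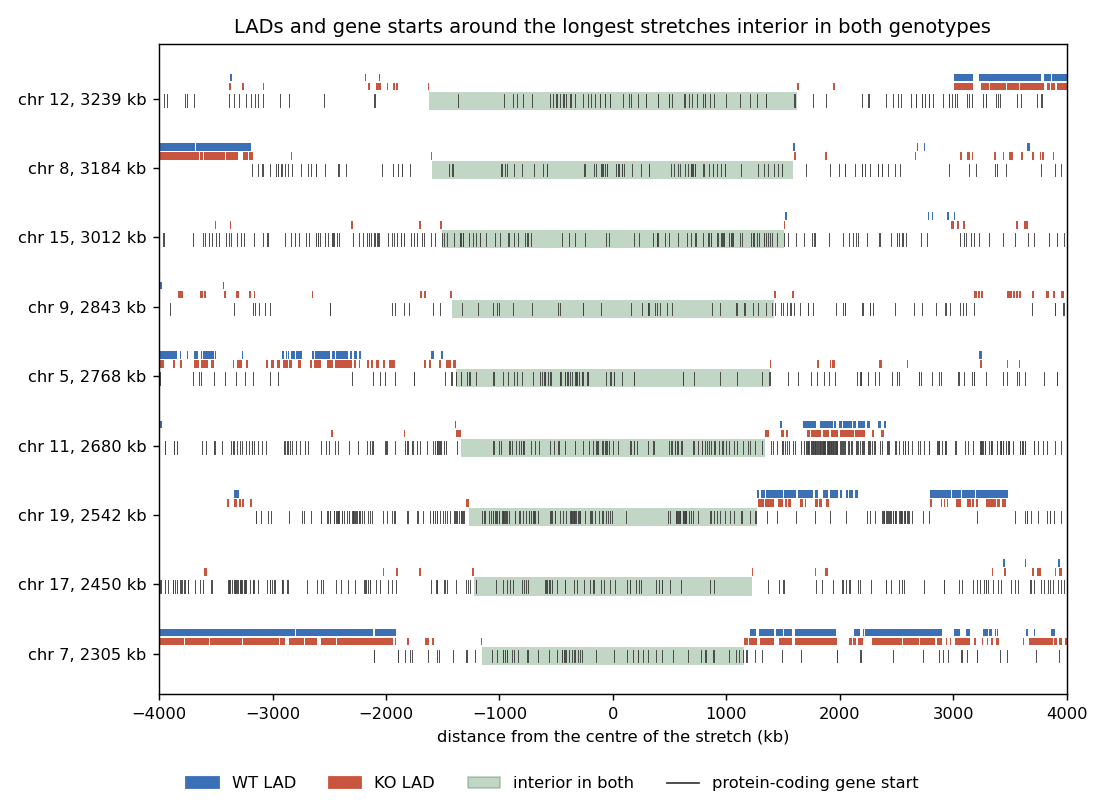
The 9 stretches of sequence among the 10 longest, each as a row centred on its middle (x axis: distance in kb; green: interior in both genotypes). WT LADs are drawn in blue, KO LADs in red and protein-coding gene starts as black ticks. In the WT most of these stretches lie in wider LAD-free chromatin, whereas short KO LADs stand at their edges.

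Genes that lie deepest in the stretches were taken by their distance to the nearest LAD of either genotype. Lin52 (a subunit of the DREAM complex) and Aldh6a1 (a mitochondrial dehydrogenase of valine breakdown) were farthest, at 1592 and 1591 kb from a KO LAD and 2025 kb from a WT LAD. Both are in the chr12 stretch. Fam38a and Cdt1 of the chr8 stretch followed at 1568 and 1551 kb from a WT LAD. In all, 1612 of the 9046 genes start at least 500 kb from any LAD and 173 at least 1000 kb. The median distance of the 9046 gene starts was 602.5 kb to the nearest WT LAD and 212.3 kb to the nearest KO LAD. Most genes lay wholly within their stretch, namely 96.8%. The other 287, with a median length of 77.3 kb, ran from a start inside into a LAD, 232 of them into KO LADs only, 11 into WT LADs only and 44 into LADs of both.

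The borders were mostly set by the KO list. Of 1320 borders, 1102 (83.5%) were the edge of a KO LAD alone, 206 (15.6%) that of a WT LAD alone, and at 12 LADs of both ended at the same base. Of those 12, 11 belong to stretches with an undetermined run. KO LADs made up 66.7% of all LADs on these chromosomes. LADs that set a border were short, with a median of 16.4 kb for KO LADs and 24.95 kb for WT LADs, against medians of 37.7 and 40.0 kb over all LADs of the respective list. Beyond a border set by the KO, the WT LAD began a median of 505.4 kb further on, and only 20.3% of these borders had a WT LAD within 100 kb. Beyond a border set by the WT, the KO LAD began a median of 23.6 kb further on, and 84.9% had a KO LAD within 100 kb. LADs of both genotypes stood within 10 kb of 114 borders, or 8.64%. The number of LADs and the read depth also differed between the lists, and their part in this was not tested. With LADs under 50 kb left out of both lists, the share of borders set by the KO was 56.2%.

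The 2 genotypes were then taken one at a time. Outside the WT LADs alone there were 666 stretches of at least 300 kb with 771.9 Mb, a median of 690.9 kb and a longest of 11667 kb. Outside the KO LADs alone there were 708 with 499.8 Mb, a median of 512.0 kb and a longest of 7000 kb, the assembly gap. Of the WT stretches, 617 (92.6%) had at least 1 KO LAD wholly inside them, 2816 KO LADs in all with a median of 18.2 kb, and KO LADs took up 9.84% of their bases. Of the KO stretches, 135 (19.1%) had a WT LAD wholly inside, 209 in all, and WT LADs took up 1.51% of their bases. Only 21 of the WT stretches were identical to a long stretch of both genotypes, against 469 of the KO stretches.

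The widest WT interior regions show how the KO LADs part them. The region chr2:24471763-36138480 held 254 gene starts and was crossed by 21 KO LADs that covered 3.62% of it, which left 11 long stretches on 89.7% of its length. Ass1 (argininosuccinate synthase of the urea cycle) lies there, 4813 kb from the nearest WT LAD and 641.6 kb from the nearest KO LAD. The region chr4:131266018-141809560 held 8 long stretches and 15 KO LADs, and chr17:23673010-32693715 held 6 long stretches and 9 KO LADs. Among 641 pairs of neighbouring stretches on a chromosome, 163 were parted by a single unbroken lamina interval, with a median of 15.5 kb, and 158 of these intervals were at most 50 kb long. The interval came from the KO list alone in 157 pairs, from the WT list alone in 2, and from both in 4. The 157 KO intervals covered 2.72 Mb with 12.7 CpG per kb, 46.7% GC and 15.8 gene starts per Mb (43 gene starts in 41 of the intervals). Their CpG and GC were near the 12.4 per kb and 46.5% of all long stretches. Their gene density lay between the 19.9 per Mb of the long stretches and the 13.6 of KO LADs only, nearer to the latter. The longest were 63.8 kb on chromosome 11, 51.5 kb within Cdh23 on chromosome 10 and 39.3 kb within Itpr2 on chromosome 6.

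Values across the borders were averaged in bins of 25 kb over 1256 borders of the 628 stretches, each stretch being read up to its middle. In the first 25 kb outside, KO LADs covered 63.6% of the bases and WT LADs 15.9%. Each border is a LAD edge by the rule, mostly of the KO, so high KO coverage in this bin was given in advance. At 25 to 50 kb outside the KO coverage was already 20.7%, and at 275 to 300 kb it was 26.4%, against 24.1% for the WT. Gene starts per Mb were 14.7 in the first bin outside, 15.7 in the first bin inside and 18.3 in the next. From 25 to 150 kb inside, where all 1256 borders remain, they lay between 17.3 and 18.9. They were 21.8 at 275 to 300 kb inside, where only the 486 borders of stretches of 600 kb or more remain. CpG content went from 11.4 per kb outside to 11.7 inside in the bins next to the border. In these bins the change in composition at the border was therefore smaller than that between the averages of the long stretches and of LADs of both genotypes. The bins are wider than the KO LADs that set a border (median 16.4 kb), and borders of WT and KO were pooled. A step limited to these LADs would be diluted in this profile.

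**Figure D3:**
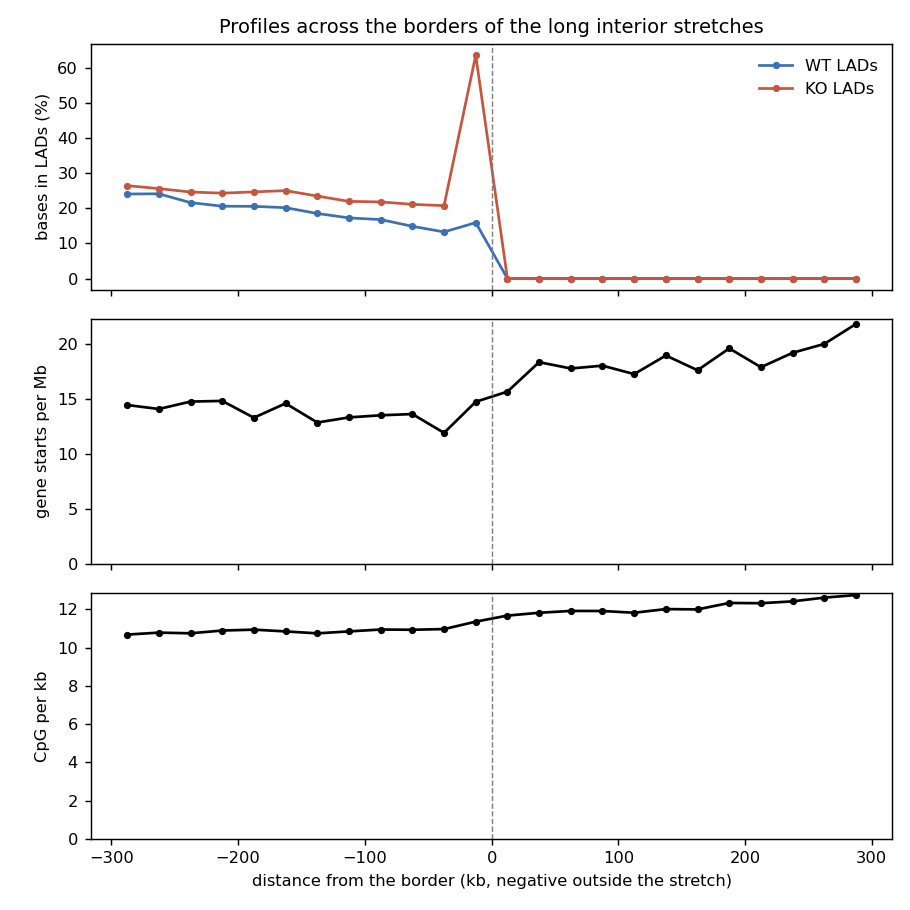
Averages by distance from the border of the stretches (kb, negative outside, 25 kb bins) of LAD coverage in percent for WT (blue) and KO (red), protein-coding gene starts per Mb and CpG per kb. Coverage is 0 inside by the rule. The narrow peak of KO coverage beside the border, 63.6%, also follows from the rule, since borders are LAD edges and mostly those of the KO. Gene starts and CpG show no sharp step at the border in these bins, which are wider than the KO LADs that set a border (median 16.4 kb). Farther inside, the shorter stretches drop out of the averages.

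Lists of genes were set beside the 42.5% of all protein-coding genes that start in a long stretch and the median distance of 25.5 kb from any gene start to the nearest LAD. Of all 21281 genes, 4930 start in shorter interior stretches and 7277 in a LAD of either genotype. Of the latter, 4136 start in LADs of both, or 19.4% of all genes, and 2600 in KO LADs only. Genes of shared families can lie side by side and are then not independent of each other. Of 19 liver transcription factors, 15 (78.9%) start in a long stretch, each in a different one, the other 4 in shorter interior stretches, and none in a LAD. Their median distance to the nearest LAD was 132.0 kb. Distances are in bases along the chromosome and give no position in the nucleus. Among those far from any LAD were Cebpb, at 1318 kb from a WT LAD and 585.3 kb from a KO LAD, and Ppara, a nuclear receptor of fatty acid metabolism, at 648.8 and 565.1 kb. The nearest were the pioneer factors Foxa2 and Foxa1 and the factor Onecut1. Foxa2 lay 114.8 kb from a WT LAD and 6.17 kb from a KO LAD, Onecut1 21.1 and 4.13 kb, and Foxa1 21.0 and 1.62 kb.

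Of 28 genes for proteins that the liver secretes into plasma, 18 (64.3%) start in long stretches, 10 in shorter interior stretches and none in a LAD, with a median distance of 128.3 kb. Coagulation factor gene F10 was farthest, 557.5 kb from a WT LAD and 537.4 kb from a KO LAD, followed by Itih1 and Itih3 (inter-alpha-trypsin inhibitor heavy chains) at 488.9 and 469.3 kb from a KO LAD. Nearest were Hpx (hemopexin) at 11.1 kb, Apob (apolipoprotein B) at 4.12 kb and Apoh at 1.55 kb from a KO LAD, while the WT LADs were 55.4, 129.7 and 109.1 kb away. Alb, the gene of serum albumin, named here although it is neither among the farthest nor the nearest, lay 353.0 kb from a WT LAD and 279.8 kb from a KO LAD.

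By their share in long stretches, metabolic genes of the hepatocyte stood nearer to the background. Their median distances to the nearest LAD were larger than the 25.5 kb of all genes. They came to 132.8 kb for glucose metabolism and 54.6 kb for the urea cycle and amino acid breakdown. Of 15 genes of glucose metabolism, 8 (53.3%) start in long stretches, led by Pcx (pyruvate carboxylase), G6pc (glucose-6-phosphatase) and Pklr (liver pyruvate kinase) at 625.7, 565.0 and 527.6 kb from a KO LAD. Gys2 (liver glycogen synthase) and Slc2a2 (the glucose transporter of the liver) lay 10.1 and 3.43 kb from one. Of 18 genes of the urea cycle and amino acid breakdown, 7 (38.9%) start in long stretches and 11 in shorter ones. Ass1, Cbs (cystathionine beta-synthase) and Gnmt (glycine N-methyltransferase) were farthest, at 641.6, 628.4 and 458.9 kb from a KO LAD, and Fah, Glul and Cth nearest, at 6.82, 5.29 and 3.30 kb from a KO LAD. None of these 33 genes starts in a LAD of either genotype, against 7277 of all 21281.

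Genes that every cell uses gave a range of shares. Of 76 genes of cytosolic ribosomal proteins, 54 (71.1%) start in long stretches, spread over 50 of them, with a median distance of 118.6 kb. Rpl23, Rpl19 and Rpl4 lay 1286, 1150 and 1112 kb from a KO LAD. The only 2 in a LAD were Rpl10l and Rpl39l, copies of the family known for expression in testis. The share was 60.5% of 38 proteasome subunits and 58.8% of 17 tRNA synthetases. It was 47.5% of 40 genes of the complex I list and 37.5% of 24 DNA replication genes, the latter pair near the 42.5% of all genes. The complex I list took every gene with an Nduf symbol and is not limited to subunits of the complex. In KO LADs and outside WT LADs started Psmd11 (proteasome), 4 Nduf genes (Ndufa10, Ndufa4, Ndufa5 and Ndufaf4) and 3 replication genes (Gins1, Mcm3 and Rfc1). Of all protein-coding genes, 12.2% start in KO LADs only. Rfc1 lay 1438 kb from the nearest WT LAD.

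Of 16 genes of the lamina and nuclear envelope on these chromosomes, 9 (56.2%) start in long stretches. Besides Tm7sf2, Lmnb2 (lamin B2) lay 743.5 kb from a WT LAD and 656.7 kb from a KO LAD, and Sun1 (an inner membrane protein that links the lamina to the cytoskeleton) 645.2 and 589.0 kb. Lemd2 was in a shorter interior stretch 3668 kb from the nearest WT LAD and 0.975 kb from a KO LAD, and Syne1 was in a LAD of both genotypes.

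Clustered families were divided. Of 39 Hox genes, which set positional identity in the embryo, 30 (76.9%) start in 3 long stretches, 1 for each of the Hoxa, Hoxb and Hoxc clusters. Of the Hoxd cluster none does: 6 genes start in shorter interior stretches and Hoxd1, Hoxd11 and Hoxd12 in KO LADs, 4.08, 32.0 and 27.5 kb from a WT LAD. Of 67 clustered histone genes, 9 (13.4%) start in a single long stretch of chromosome 3, among them Hist2h2ab at 758.9 kb from a KO LAD. The others, mostly of the cluster on chromosome 13, start in shorter interior stretches (50 genes) or in KO LADs (8 genes). Keratins and keratin-associated proteins had 23 of 97 (23.7%) in long stretches. Krt8 and Krt18, the keratins of hepatocytes and other simple epithelia, were among them, 188.4 and 212.3 kb from a KO LAD. The receptor and adhesion families lay almost wholly outside. Olfactory receptors had 22 of 1106 (1.99%) in long stretches and 918 in LADs of both genotypes, vomeronasal receptors 0 of 320 and clustered protocadherins 0 of 24. Of 39 large neuronal adhesion and synapse genes, 1 started in a long stretch, Cntn2, at 406.4 kb from a KO LAD, and 30 started in LADs of both. LADs of both held 19.4% of all protein-coding gene starts.

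**Figure D4:**
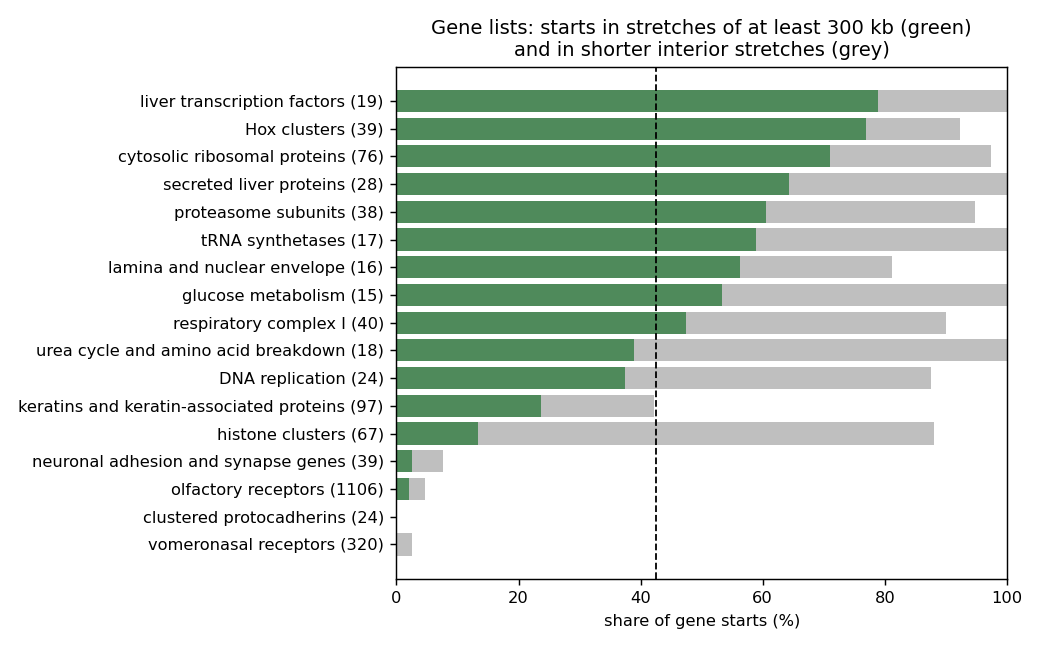
Share of the genes of each list (numbers of genes in brackets) that start in a long interior stretch (green) and in shorter interior stretches (grey). The dashed line marks the 42.5% of all protein-coding genes that start in a long stretch. The grey part is stacked on the green. The green part is longest for liver transcription factors (78.9%), Hox genes (76.9%) and ribosomal proteins (71.1%), and is near 0 for olfactory receptors (1.99%).

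The stretches were unevenly spread over the chromosomes. Their share of the determined bases was highest on chromosome 19 (37.0%) and chromosome 11 (35.3%) and lowest on chromosome 3 (7.995%), with 11.6% on chromosome 1 and 11.7% on chromosome 13. The share of gene starts was highest on chromosome 15 (66.2%), followed by chromosomes 19 (64.3%) and 11 (61.9%), and lowest on chromosome 13 (18.3%). On all 19 chromosomes the share of gene starts exceeded that of bases. Chromosome 19 also differed in how the stretches were bounded. The KO set 36 of 52 borders there (69.2%), the lowest share of the 19 chromosomes, against 95.5% on chromosome 2. Outside the LADs of a single genotype, stretches of at least 300 kb held 25.2 Mb of chromosome 19 in the WT and 25.8 Mb in the KO, the only chromosome on which the KO value was the higher. On the others the WT value was higher, for example 64.5 against 39.9 Mb on chromosome 2 and 33.6 against 12.7 Mb on chromosome 3.

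**Figure D5:**
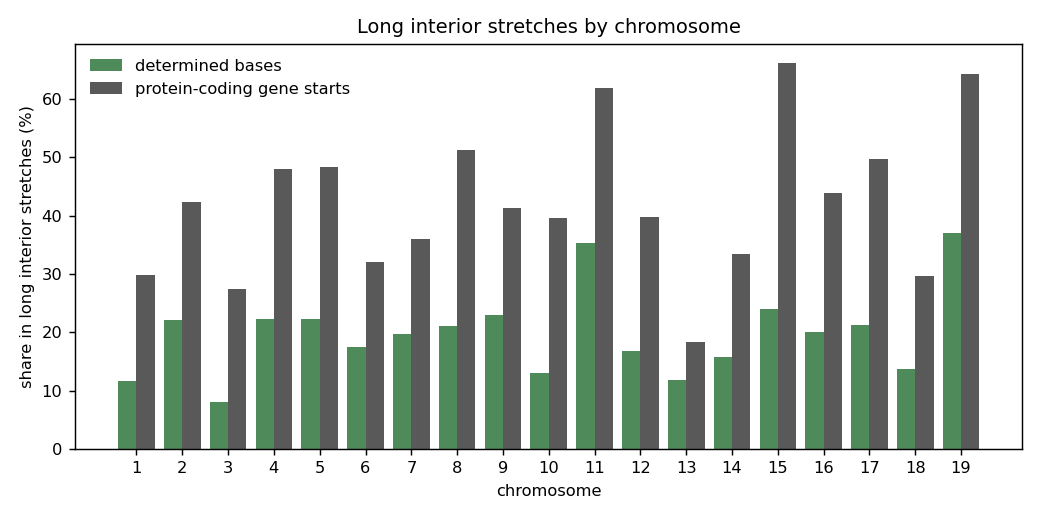
Share of determined bases (green) and of protein-coding gene starts (dark grey) in the long interior stretches for chromosomes 1 to 19. The share of gene starts is above that of bases on each chromosome, with the highest values on chromosomes 15, 19 and 11.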

How the data were processed

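Per the labels and the methods of the study, genomic DNA of 4 libraries was digested with DpnI, sequenced and mapped to mm9. The submitters' processing notes list BWA and limma without a version. For each DpnI fragment the authors set the Dam-LaminB1 signal against that of Dam only on a log2 scale, and they called LADs from this profile with the segmentation package DNAcopy. The deposited LAD lists, 1 for WT and 1 for KO, hold interval positions only. The authors' lists of differential regions were counted and not otherwise used.

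Both LAD lists were merged, and the gaps between merged LADs on chromosomes 1 to 19 of at least 300 kb were kept. Base composition came from the NCBIM37 genome. Genes were the protein-coding genes of its GENCODE annotation (release M1), with 1 entry per symbol and chromosome, placed by their annotated start. Python 3.11.15, numpy 2.4.6, scipy 1.17.1, pysam 0.24.0 and matplotlib 3.10.9 were used. On simulated data, 1424 interior stretches, 1000 distances and 400 counts of gene starts came out with 0 errors.

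The stretches and gene lists were chosen with earlier results of these data known. Named were the 10 longest stretches, the 3 highest and 3 lowest by gene density and by CpG, the 3 on either side of 300 kb, the 3 farthest and 3 nearest genes of each list, and Tm7sf2, except for a few items not reported here. Of 18 symbols of the nuclear envelope list, 16 were found. No test was made, since each genotype has a single pooled pair of libraries. Alternatives were other minimum lengths of stretches and LADs, each genotype alone, other chromosomes, other gene rules and the removal of undetermined bases.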

Additional observations from a re-analysis of the deposited data

How the results depend on the processing

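Numbers and sizes were counted as unchanged within a factor of 1.5 and shares within their 95% Wilson interval. That interval takes genes or borders as independent and serves only as a working limit. Under 69 combinations of a result with another setting, 48 values stayed within these limits and 21 did not. Gene starts per Mb and CpG per kb stayed within them under every setting tried, at 15.8 to 23.5 and 11.5 to 13.0. For CpG this limit is too wide to be informative. The 8.51 per kb of chromosomes 1 to 19 would also count as unchanged from the 12.4 of the long stretches. The number of stretches moved with the minimum length, to 1002 at 200 kb, 349 at 500 kb and 127 at 1000 kb. Their bases moved to 197.3 Mb at 1000 kb, to 853.8 Mb with LADs under 50 kb left out, and to 771.9 Mb outside the WT LADs alone. The share of gene starts, whose interval is narrow, moved to 48.3%, 33.2% and 20.2% at minimum lengths of 200, 500 and 1000 kb, to 52.4% and 62.0% with LADs under 20 and 50 kb left out, to 60.8% outside the WT LADs and 43.7% outside the KO LADs alone, to 41.7% without chromosome 19, 41.2% with X and 39.8% without stretches that hold an undetermined run. It was 41.2% for genes wholly inside, 43.8% for genes with any base inside and 37.7% for genes of all biotypes. The share of borders set by the KO fell to 76.1% and 56.2% with LADs under 20 and 50 kb left out. The causes were not tested. Leaving out the 7 stretches that are over 90% undetermined, a setting chosen after seeing the data, gave 653 stretches with 457.0 Mb and no change in the share of gene starts. The alternative without repeat bases was not run, because the genome used here does not mark repeats. No paired analysis was possible because each genotype has 1 pooled library pair. The lists give no depth per fragment, so its part in the borders was not tested. They hold no LAD under 10 kb.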

Other observations

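The X chromosome, which the rule leaves out, held 11 stretches of at least 300 kb outside the LADs of both genotypes, 10 of them without an undetermined run. These 10 covered 5.22 Mb, the longest being 1031 kb, with 20.3 gene starts per Mb and 9.46 CpG per kb. Of 927 protein-coding genes on the X chromosome, 109 (11.8%) start in the 11 stretches. Among the ends of chromosomes 1 to 19 that follow the last LAD, 1 was longer than 300 kb. It covers the last 716.3 kb of chromosome 7 and holds 10 gene starts.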
